A study of Mus musculus with 6 samples.

Results

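The genes of the sarco/endoplasmic reticulum calcium pumps (SERCA), of the channels that release calcium from the same store and of the small proteins that regulate the pumps were examined in brown adipose tissue (BAT). The 9 genes were taken by symbol from the 35976 rows of the deposited count table. They are the pumps Atp2a1, Atp2a2 and Atp2a3, the ryanodine receptors Ryr1 and Ryr2, the inositol trisphosphate (IP3) receptors Itpr1 and Itpr2, and the regulators sarcolipin (Sln) and phospholamban (Pln). BAT of 3 WT mice and of 3 mice that lacked sST2 (sST2-KO) was profiled by RNA-seq, with 1 library per mouse. All were 10-week-old males on a C57BL/6J background, all had undergone surgical denervation of BAT, and all had been exposed to 10 °C for 8 h. The sST2-KO mice were homozygous for a CRISPR/Cas9 deletion of introns 8–9 of Il1rl1, made to remove the soluble receptor sST2, and both groups were bred from heterozygous parents. The comparison asked which BAT genes differed when sST2 was absent and nerve input to the tissue was cut.

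SERCA pumps spend ATP to move calcium from the cytosol into the endoplasmic reticulum, or into its muscle form, the sarcoplasmic reticulum. Ryanodine and IP3 receptors let the calcium out again. Where release and uptake run side by side, or where sarcolipin uncouples ATP use from transport, the pump gives off heat, and such calcium cycling has been described in muscle and in beige fat as heat production that does not need UCP1. Several of the genes have forms typical of one cell type. Atp2a1, Ryr1 and Sln are best known from skeletal muscle, Ryr2 and Pln from the heart, and Atp2a2 is the pump of the heart, of slow muscle and of most other cells.

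Atp2a1 was the most abundant member in sST2-KO BAT, and it varied widely among the mice of each group, as did Ryr1 and Sln. Atp2a1 and Ryr1 were higher in every sST2-KO library than in any WT library, but WT replicate 1 also held many counts of both, and neither passed the test. Itpr2, an IP3 receptor gene, was the only member called, and it fell. Atp2a2, the main pump gene of WT replicates 2 and 3, differed by less than the spread between mice. Calls required more than a 2-fold change and an adjusted p below 0.05 in edgeR's quasi-likelihood test. By this edgeR rule 0 of the 9 members were called higher and 1 was called lower, where 9.04% of the 14542 genes tested were called higher and 7.10% were called lower. Ryr2 and Pln had too few counts to be tested, so 7 of the 9 entered the test. At an unadjusted p under 0.05, 3 of them were higher and 1 was lower, where 19.6% and 16.7% of all genes tested were higher and lower at this limit. DESeq2, with the same limits on fold and adjusted p, called 0 of the members higher and 2 lower. Of the 24404 genes with a p-value in DESeq2, it called 6.83% higher and 5.38% lower. It can leave genes of low count without an adjusted p, so these shares and edgeR's rest on unlike sets of genes. The values of all 3 sST2-KO libraries lay above all WT values in 3 members, Atp2a1, Atp2a3 and Ryr1, and below them in 2, Ryr2 and Itpr2. Over all genes tested, 21.8% lay apart in this way on the higher side and 19.7% on the lower side.

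Where 3 values of a group are given, they are those of replicates 1, 2 and 3 in this order. The libraries held 8159442 to 12874809 counts, and 3 counts were worth 0.209 to 0.370 normalized CPM. Markers of brown adipocytes were abundant in each library, but their summed level was lower in sST2-KO BAT, at 1647 to 4369 normalized CPM against 11443 to 20012 in WT BAT, and 6 of the 7 genes of the list were called lower. The list of 18 skeletal muscle genes, which holds no member, summed to 1473, 205 and 120 normalized CPM in the WT mice, against 7297, 3983 and 16406 in the sST2-KO mice. All 18 were higher in every sST2-KO library than in any WT library and 5 were called. In bulk tissue, fewer cells of a type and less RNA per cell cannot be told apart. Il1rl1 had 19, 19 and 6 counts in the WT mice, against 55, 69 and 142 in the sST2-KO mice. Counts per gene add up sST2 and the membrane form ST2L, so they check no genotype.

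**Figure D1:**
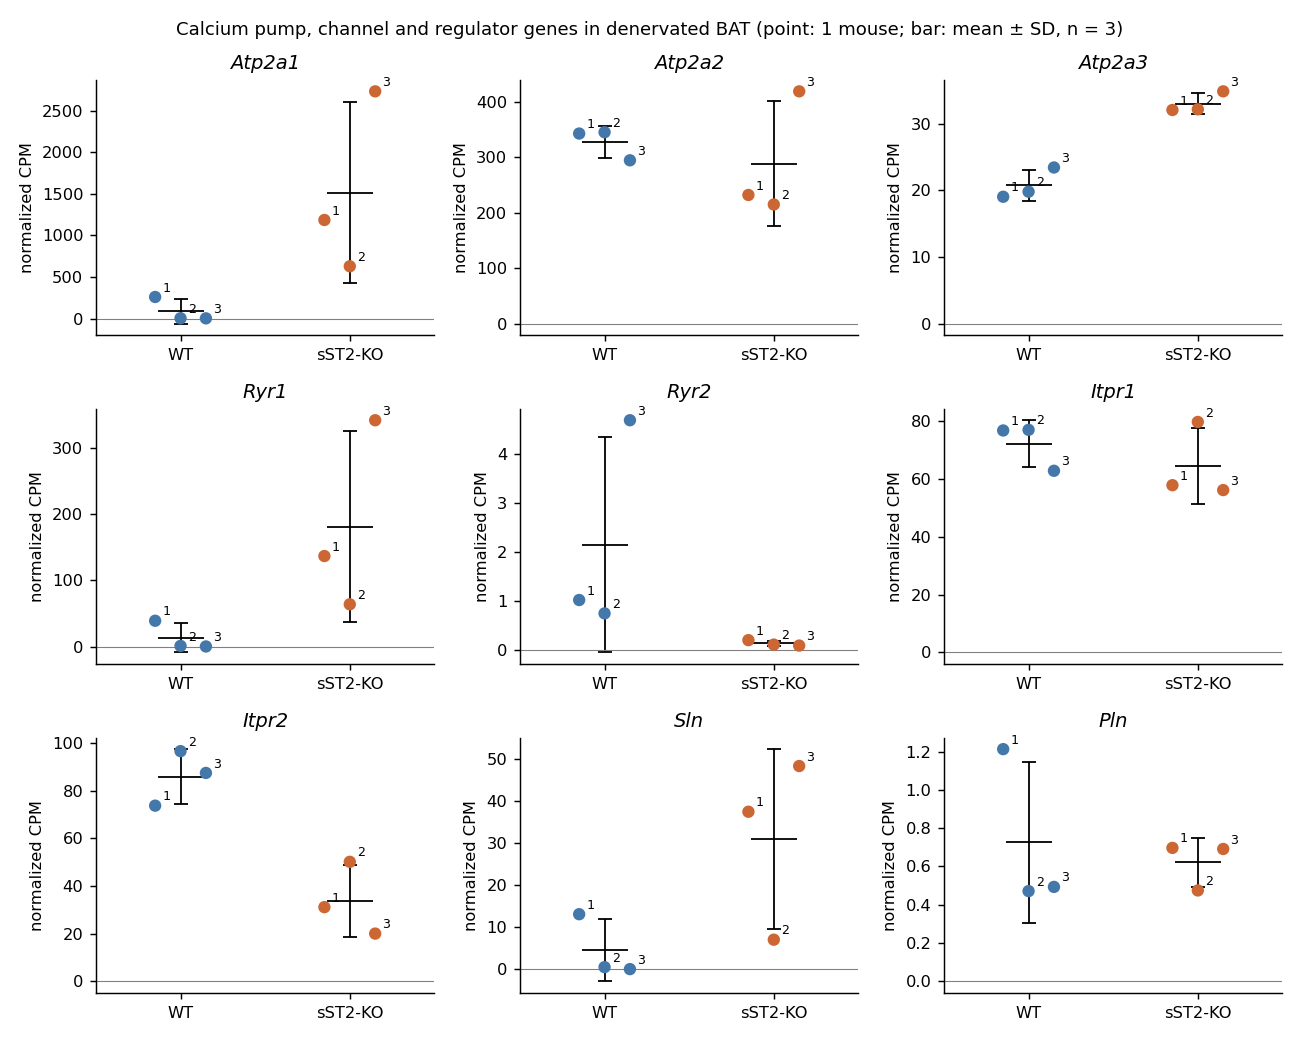
Normalized counts per 1000000 (CPM) of each of the 9 genes by library on linear axes that differ between panels, with 1 point per mouse, replicate numbers beside the points and bars for the mean ± SD of 3 mice. The sST2-KO points of Atp2a1, Ryr1 and Atp2a3 all sit above the WT points, those of Itpr2 and Ryr2 all sit below, and the other panels overlap.

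The promoter windows of Atp2a1 and Ryr1, whose levels ran in the same order over the 6 libraries, and of Itpr2, the member called, are given for reference. Each runs 5′ to 3′ from 250 bases before to 50 bases after the transcription start, as RefSeq gives it on GRCm38.p6. The window of Atp2a1 is chr7:126463024-126463323 on the minus strand, that of Ryr1 is chr7:29125102-29125401 on the minus strand and that of Itpr2 is chr6:146502174-146502473 on the minus strand. Capitals mark the E-box CANNTG, the core bound by MyoD and other basic helix-loop-helix factors.
Atp2a1: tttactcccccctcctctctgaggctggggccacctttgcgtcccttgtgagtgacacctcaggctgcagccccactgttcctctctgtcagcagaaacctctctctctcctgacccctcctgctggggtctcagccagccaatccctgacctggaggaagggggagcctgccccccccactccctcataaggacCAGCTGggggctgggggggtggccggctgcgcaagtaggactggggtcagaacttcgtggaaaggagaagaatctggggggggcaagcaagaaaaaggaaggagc
Ryr1: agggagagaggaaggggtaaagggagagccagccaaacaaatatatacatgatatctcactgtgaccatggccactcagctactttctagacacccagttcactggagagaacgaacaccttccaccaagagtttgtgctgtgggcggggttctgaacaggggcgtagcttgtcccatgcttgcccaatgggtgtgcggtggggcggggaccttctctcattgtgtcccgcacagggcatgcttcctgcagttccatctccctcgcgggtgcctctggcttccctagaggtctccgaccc
Itpr2: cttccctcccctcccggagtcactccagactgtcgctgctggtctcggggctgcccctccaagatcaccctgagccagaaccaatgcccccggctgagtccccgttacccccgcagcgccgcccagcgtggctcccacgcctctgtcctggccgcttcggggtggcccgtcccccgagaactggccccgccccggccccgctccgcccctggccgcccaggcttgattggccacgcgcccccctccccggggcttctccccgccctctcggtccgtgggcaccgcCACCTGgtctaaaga
The E-box CANNTG reads the same on both strands in this form. It stood once in the Atp2a1 window, from position -55 relative to the start, as CAGCTG, the version that muscle factors often use. The Ryr1 window held none, and the Itpr2 window held 1, as CACCTG, from position 36 with the start as position 1. Of 32851 promoter windows of the same length, 72.3% held CANNTG, 16.3% held CAGCTG and 0.557% held a MEF2 site, searched on both strands. No window of these 3 genes held a MEF2 site. A match of letters is a description and no evidence of binding. Of the 9 genes, 6 had a window in the table, and Atp2a2, Itpr1 and Sln are named only. Among the windows not printed, that of Pln held 2 E-boxes, 1 of them CAGCTG from position 9. That of Ryr2 held 2, neither of them CAGCTG, and that of Atp2a3 held none.

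Atp2a1 encodes SERCA1, the pump of fast-twitch muscle. On GRCm39 the gene spans 126045013 to 126063423 of chromosome 7, minus strand. It had 2792, 48 and 27 counts in the WT mice, against 17025, 5307 and 27683 in the sST2-KO mice. As normalized CPM these were 260, 4.52 and 3.33 in WT and 1187, 630 and 2734 in sST2-KO mice. The groups did not overlap, but on a log scale WT replicate 1 was closer to sST2-KO replicate 2 than to the other WT mice. The mean level was 89.4 ± 148 CPM (SD, n = 3) in WT and 1517 ± 1090 CPM (SD, n = 3) in sST2-KO BAT. The log2 fold change was 4.08 (standard error 1.63, 95% interval 0.28 to 7.89, adjusted p = 0.117), so the gene was not called. Without WT replicate 1 the log2 fold change was 8.58 and the adjusted p 0.0258 in the same edgeR test, while leaving out any other library gave an adjusted p of up to 0.227 and no call. Of its 6751 exonic bases, 1188 also lie in exons of Rabep2 on the opposite strand, and whether the counting used the strand is not given in the sources used here.

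Ryr1, the calcium release channel of skeletal muscle, lies on the same chromosome from 28702769 to 28824604, also on the minus strand, and shares 898 of its 21829 exonic bases with Gm26604 on the opposite strand. It had 417, 10 and 1 counts in the WT mice, against 1959, 537 and 3457 in the sST2-KO mice. The normalized levels were 38.9, 0.942 and 0.123 CPM in the WT mice, against 137, 63.7 and 341 CPM in the sST2-KO mice. The order of the libraries was the one seen for Atp2a1, with WT replicate 3 lowest and sST2-KO replicate 3 highest. Ryr1 averaged 13.3 ± 22.2 CPM (SD, n = 3) in WT and 181 ± 144 CPM (SD, n = 3) in sST2-KO BAT, a log2 fold change of 3.75 (standard error 1.51, 95% interval 0.22 to 7.28, adjusted p = 0.1198). It was not called, and as for Atp2a1 the only library whose removal gave a call was WT replicate 1 (log2 fold change 8.27, adjusted p = 0.0258).

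Sln encodes sarcolipin, a small membrane protein that binds SERCA and uncouples its ATP use from calcium transport. It lies on chromosome 9 from 53742537 to 53761846 on the plus strand. It had 140, 5 and 0 counts in the WT mice, against 537, 59 and 489 in the sST2-KO mice, or 13.1, 0.471 and 0 CPM against 37.4, 7.001 and 48.3 CPM. Here the groups overlapped, because sST2-KO replicate 2 lay below WT replicate 1. The count of 0 in WT replicate 3 allows up to 0.370 CPM for counting error alone. The log2 fold change of Sln was 2.75 (standard error 1.34, 95% interval -0.37 to 5.88, adjusted p = 0.183), which missed the threshold. It was called without WT replicate 1 (6.82, adjusted p = 0.0301), where the WT group was left with 5 counts in all and the fitted value depends on the prior count.

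Atp2a1 and Ryr1 ranked the 6 libraries as the summed skeletal muscle list did, and Sln differed from it in the place of sST2-KO replicate 2 only. Set against the summed list, Atp2a1 came to 17.7%, 2.203% and 2.77% in the WT mice, against 16.3%, 15.8% and 16.7% in the sST2-KO mice. WT replicate 1 thus stood beside the sST2-KO libraries in this measure, and the other WT libraries stood apart at a low level. Ryr1 came to 2.64%, 0.459% and 0.103% of the list in WT and to 1.87%, 1.60% and 2.08% in sST2-KO mice. Sln came to 0.886%, 0.229% and 0% in WT and to 0.513%, 0.176% and 0.294% in sST2-KO mice, without separation of the groups. In the 2 WT libraries with the low sums, much of the list was carried by Myl1 (51.4 and 58.7 CPM) and Mb (78.9 and 30.8 CPM). The defining muscle gene Ckm was at 1.88 and 0 CPM there. Genes of slow muscle, a list of 7, summed to 168, 2.54 and 4.32 CPM in the WT mice, against 269, 54.5 and 883 CPM in the sST2-KO mice, with sST2-KO replicate 2 below WT replicate 1 as for Sln. Of these 7, 0 were called by edgeR or by DESeq2, and 0 had an unadjusted p under 0.05. Among 7 heart genes, Myl7 was at 0 in each library, and the list summed to 8.76 to 13.9 CPM in WT and 9.97 to 26.7 CPM in sST2-KO BAT. What part the muscle genes have in the levels of Atp2a1, Ryr1 and Sln was not tested.

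**Figure D2:**
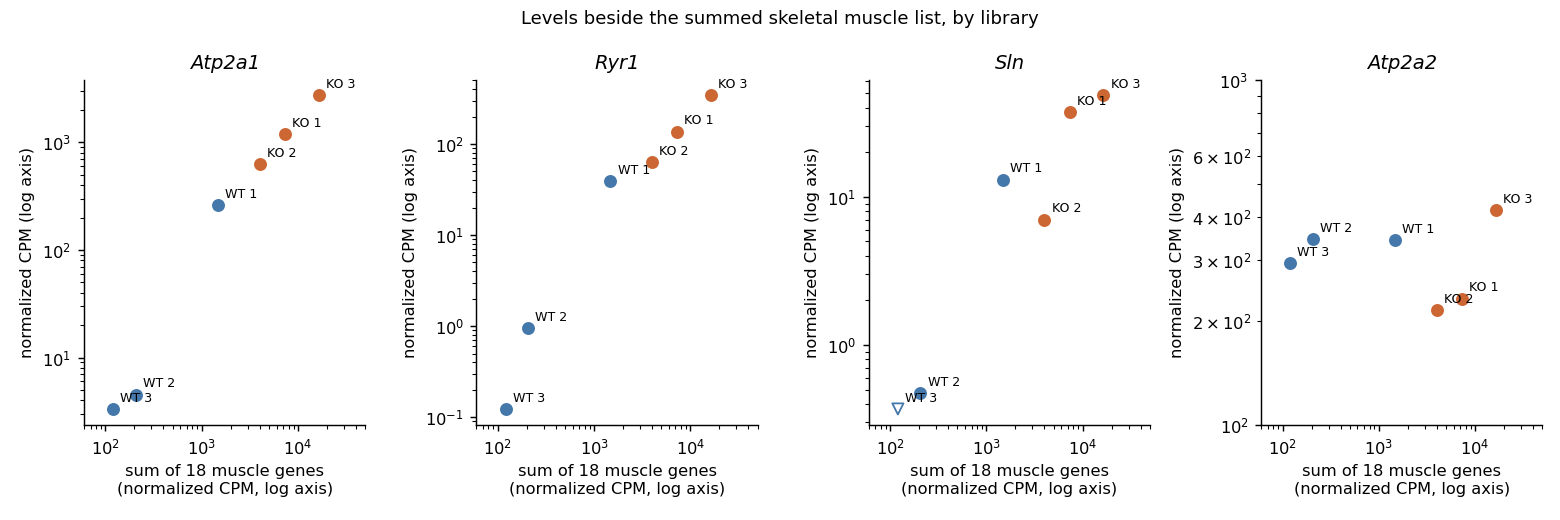
Level of Atp2a1, Ryr1, Sln and Atp2a2 against the sum of 18 skeletal muscle genes, both as normalized CPM on log axes, with 1 point per library (blue WT, orange sST2-KO) and an open triangle at the 3-count limit for the library with 0 counts of Sln. Atp2a1 runs from 3.33 CPM beside a list sum of 120 to 2734 CPM beside a sum of 16406, whereas Atp2a2 stays between 215 and 419 CPM.

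Atp2a2 encodes SERCA2, the pump found in most cells. It lies on chromosome 5 from 122591575 to 122640903 on the minus strand. It had 3677, 3665 and 2390 counts in the WT mice, against 3330, 1811 and 4245 in the sST2-KO mice. The levels were 343, 345 and 295 CPM in the WT mice, against 232, 215 and 419 CPM in the sST2-KO mice, so sST2-KO replicate 3 was the highest of all libraries and the other sST2-KO libraries were the lowest. The mean was 328 ± 28.6 CPM (SD, n = 3) in WT and 289 ± 113 CPM (SD, n = 3) in sST2-KO BAT. The log2 fold change of Atp2a2 was -0.18 (standard error 0.30, adjusted p = 0.693), and its 95% interval ran from -0.87 to 0.51. Without sST2-KO replicate 3, the library with the highest muscle list sum, the value was -0.56 (adjusted p = 0.144), and with scaling by total counts it turned to 0.085. Of its 12239 exonic bases, 3206 are shared with Gm43361 and 112 with Anapc7, both on the opposite strand.

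Atp2a3 encodes SERCA3, which is known from blood cells, platelets and endothelium. It lies on chromosome 11 from 72851990 to 72883870 on the plus strand. It had 204, 210 and 190 counts in the WT mice, against 460, 271 and 353 in the sST2-KO mice, or 19.0, 19.8 and 23.4 CPM against 32.1, 32.2 and 34.9 CPM. The groups did not overlap and the mice within each were close to each other. Mean levels were 20.7 ± 2.35 CPM for WT and 33.0 ± 1.59 CPM for sST2-KO BAT (SD, n = 3 each), and the log2 fold change of Atp2a3 was 0.67 (standard error 0.17, 95% interval 0.27 to 1.07, adjusted p = 0.0348). This passed the adjusted p but stayed under the 2-fold minimum. The adjusted p was above 0.05 when any of the 6 libraries was left out, between 0.0576 and 0.106 in edgeR's test, with the log2 fold change between 0.61 and 0.76. Markers of T and B cells, a list of 9, summed to 14.4 to 16.9 CPM in WT and to 93.7 to 112 CPM in sST2-KO BAT, and 5 of the 7 tested were called higher, the T cell genes Cd3e, Cd3d, Cd3g, Cd247 and Lck. Platelet genes summed to 20.7 to 29.9 CPM in WT and to 24.6 to 75.6 CPM in sST2-KO BAT, and endothelial genes to 1176 to 1557 CPM against 1094 to 1952 CPM. Their part in the level of Atp2a3 was not tested.

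To compare the pumps with each other, normalized CPM was divided by the length of each gene's exons in kilobases. On this scale Atp2a1 made up 55.0%, 2.06% and 1.70% of the 3 SERCA genes in the WT mice, against 87.6%, 79.8% and 90.9% in the sST2-KO mice. Atp2a2 made up 39.9%, 86.6% and 83.2% in WT and 9.45%, 15.03% and 7.68% in sST2-KO mice. On this scale Atp2a2 was therefore the leading pump gene in WT replicates 2 and 3 only. Before the division by length it also led in WT replicate 1, at 343 CPM against 260 CPM for Atp2a1. Atp2a3 held 5.07% to 15.1% in WT and 1.46% to 5.14% in sST2-KO BAT, ranges that overlap slightly. The log2 ratio of Atp2a1 to Atp2a2 counts, which does not depend on scaling, was -0.40, -6.24 and -6.44 in WT and 2.35, 1.55 and 2.71 in sST2-KO mice. The means differed by 6.56, and an exact two-sided permutation test gave p = 0.1, the smallest that 3 mice against 3 can give.

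**Figure D3:**
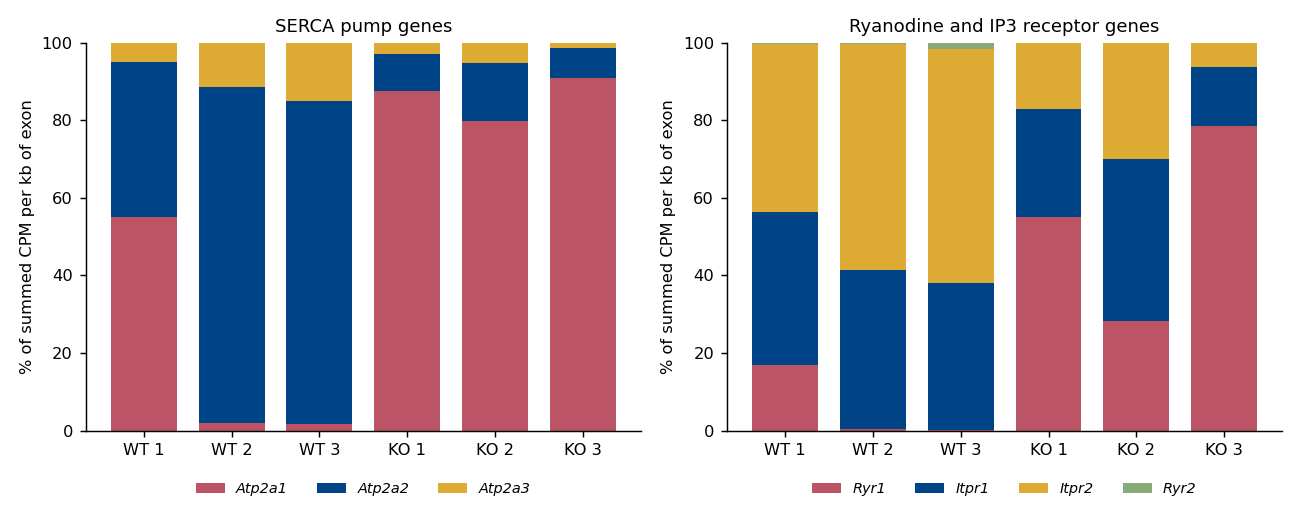
Share of each gene in the summed level per kilobase of exon of the 3 SERCA genes (left) and of the 4 ryanodine and IP3 receptor genes (right), in percent, with 1 bar per library. Atp2a1 takes 79.8% to 90.9% of the SERCA bar in the sST2-KO libraries and 55.0% in WT replicate 1, against about 2% in the other WT libraries.

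Among the release channels, Ryr2, the ryanodine receptor of the heart, was rare. The gene lies on chromosome 13 from 11567988 to 12121870 on the minus strand. It had 11, 8 and 38 counts in the WT mice, against 3, 1 and 1 in the sST2-KO mice, or 1.03, 0.754 and 4.68 CPM against 0.209, 0.119 and 0.0987 CPM. Each sST2-KO library was at or under the detection floor of 3 counts, each WT library was above it, and WT replicate 3 held most of the WT counts. Summed over the libraries, 57 counts against 5 gave a WT level 12.7 times that in sST2-KO BAT, with an exact interval of 5.15 to 40.7 that covers counting error only. Ryr2 did not pass edgeR's expression filter. Fitted without the filter, its adjusted p was 0.0213 with a log2 fold change of -3.73, and with DESeq2 it was 0.00377 with -3.89. Both fits rest on these few counts. In edgeR's fits with 1 library left out, the gene passed the expression filter in 4. Its adjusted p was 0.0462 without WT replicate 2, and 0.0642, 0.0755 and 0.0859 without sST2-KO replicates 1, 2 and 3. The log2 ratio of the group means was -3.92, and -2.65 without WT replicate 3. Of the heart genes named above, 4 were tested and 0 were called by edgeR, with 1 higher at an unadjusted p under 0.05 and 1 called higher by DESeq2. The brown adipocyte markers summed to 11443, 14990 and 20012 CPM in the WT mice, against 3195, 4369 and 1647 CPM in the sST2-KO mice. The part of either list in the level of Ryr2 was not tested.

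The log2 ratio of Ryr1 to Ryr2 counts was 5.18, 0.30 and -4.68 in WT and 9.13, 8.49 and 11.2 in sST2-KO mice. The means differed by 9.33 with an exact two-sided permutation p of 0.1, again the smallest possible. WT replicate 3, where Ryr2 counts outnumbered Ryr1 counts, was the only such library. In that library Ryr1 had 1 count and Ryr2 had 38.

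Itpr2 encodes an IP3 receptor, a channel that opens when hormone receptors release IP3 at the plasma membrane. It lies on chromosome 6 from 146009797 to 146403721 on the minus strand. It had 791, 1026 and 710 counts in the WT mice, against 447, 423 and 203 in the sST2-KO mice. The levels were 73.8, 96.7 and 87.5 CPM in the WT mice, against 31.2, 50.2 and 20.05 CPM in the sST2-KO mice, so each sST2-KO library lay below each WT library. Mean levels fell from 86.0 ± 11.5 CPM in WT to 33.8 ± 15.2 CPM in sST2-KO BAT (SD, n = 3 each). The log2 fold change of Itpr2 was -1.35 (standard error 0.33, 95% interval -2.11 to -0.59, adjusted p = 0.0301). The direction held whichever library was left out (-1.77 to -1.08), but the adjusted p rose above 0.05 without WT replicate 2 (0.0867), WT replicate 3 (0.104), sST2-KO replicate 1 (0.0718) or sST2-KO replicate 3 (0.0516). The sum of the brown adipocyte markers was 11443, 14990 and 20012 CPM in the WT mice, against 3195, 4369 and 1647 CPM in the sST2-KO mice. The sum of 7 genes of all adipocytes was 22558, 21469 and 25837 CPM in the WT mice, against 13075, 11928 and 6561 CPM in the sST2-KO mice. Itpr2 and both sums were lowest in sST2-KO replicate 3, but the WT mice stood in another order for Itpr2 than for either sum. The part of the adipocyte genes in the fall of Itpr2 was not tested.

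Itpr1, the other IP3 receptor gene among the members, lies on chromosome 6 from 108190048 to 108528070 on the plus strand. It had 822, 816 and 509 counts in the WT mice, against 829, 671 and 568 in the sST2-KO mice, or 76.7, 76.9 and 62.8 CPM against 57.8, 79.6 and 56.1 CPM. The groups overlapped, and sST2-KO replicate 2 was the highest library. The log2 fold change of Itpr1 was -0.16 (standard error 0.20, adjusted p = 0.603), its 95% interval was -0.63 to 0.31, and scaling by total counts turned it to 0.081. Per kilobase of exon, Itpr2 stood above Itpr1 in each WT library (4.56, 5.98 and 5.41 against 4.18, 4.20 and 3.42 CPM per kb). In each sST2-KO library Itpr1 stood above Itpr2 (3.15, 4.34 and 3.06 against 1.93, 3.10 and 1.24 CPM per kb). Before the division by length, Itpr1 also stood above Itpr2 in WT replicate 1, at 76.7 against 73.8 CPM.

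Ryr1 took 16.9%, 0.421% and 0.0628% of the summed level per kilobase of the 4 channel genes in the WT mice, against 55.2%, 28.1% and 78.4% in the sST2-KO mice. In sST2-KO replicate 2, the sST2-KO library with the lowest muscle list sum, the IP3 receptors together still held the larger share. Ryr2 held 0.243% to 1.72% in WT and 0.0164% to 0.0609% in sST2-KO BAT.

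Pln encodes phospholamban, which lowers the calcium affinity of SERCA2 in the heart. It lies on chromosome 10 from 53199622 to 53223512 on the plus strand. It had 13, 5 and 4 counts in the WT mice, against 10, 4 and 7 in the sST2-KO mice, or 1.21, 0.471 and 0.493 CPM against 0.697, 0.475 and 0.691 CPM. The groups overlapped and no library reached more than 13 counts. Summed over libraries, 21 counts in sST2-KO against 22 in WT BAT gave a ratio of 0.854, with an exact interval of 0.447 to 1.63 for counting error only, so a difference within these bounds was not detectable at this depth. The log2 ratio of the means was -0.22 and turned to 0.36 without WT replicate 1. Of the 6163 exonic bases of Pln, 2688 are shared with Gm47644 and 141 with Cep85l, both on the opposite strand.

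**Figure D4:**
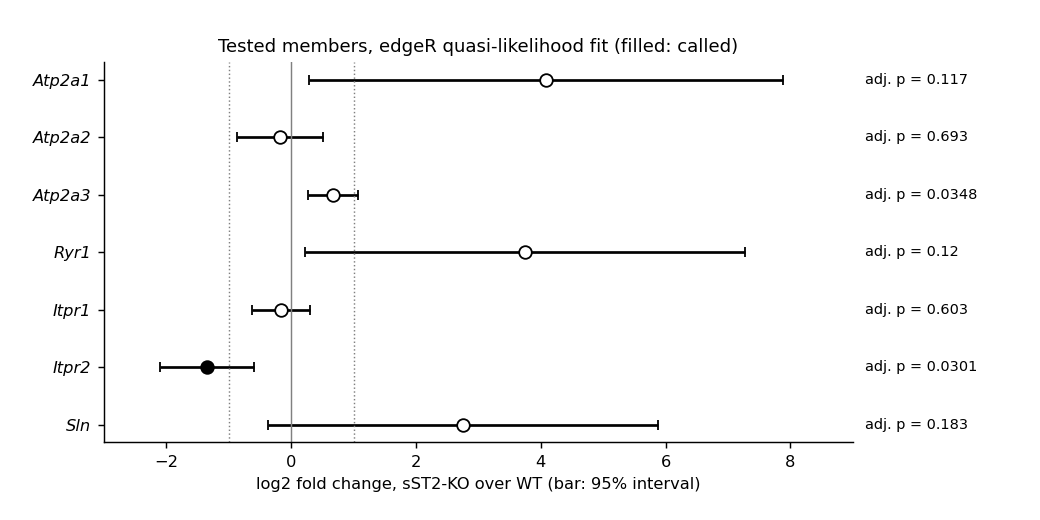
Log2 fold change (sST2-KO over WT) of the 7 tested genes with its 95% interval from edgeR's quasi-likelihood fit, adjusted p at the right, dotted lines at a 2-fold change and a filled point for the called gene. Itpr2 at -1.35 is the only filled point, and the intervals of Atp2a1, Ryr1 and Sln are the widest.

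Ordered by mean level per kilobase of exon, the WT group ran from Atp2a2 (26.8 ± 2.34 CPM per kb, SD, n = 3) through Atp2a1 (13.2 ± 21.9), Itpr2 (5.32 ± 0.713), Itpr1 (3.93 ± 0.442), Atp2a3 (3.88 ± 0.439), Sln (2.93 ± 4.81), Ryr1 (0.610 ± 1.01) and Pln (0.118 ± 0.0685) to Ryr2 (0.0712 ± 0.0725). The places of Atp2a1, Sln and Ryr1 rested on WT replicate 1, and Itpr1 and Atp2a3 did not differ beyond their spread, nor did Pln and Ryr2. In sST2-KO BAT the order was Atp2a1 (225 ± 161 CPM per kb, SD, n = 3), Atp2a2 (23.6 ± 9.26), Sln (20.1 ± 13.9), Ryr1 (8.27 ± 6.59), Atp2a3 (6.17 ± 0.297), Itpr1 (3.52 ± 0.716), Itpr2 (2.09 ± 0.943), Pln (0.101 ± 0.0206) and Ryr2 (0.00469 ± 0.00194). Atp2a1 lay above every other member in each sST2-KO library. Atp2a2, Sln and Ryr1 overlapped as neighbors, as did Ryr1 and Atp2a3, and Itpr1 and Itpr2.

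The genes whose log2 CPM followed each member most closely over the 6 libraries were taken from 11599 genes by Pearson's r, as a description over libraries that share 2 groups. For Atp2a1 they were Apobec2, Xirp2 and Mybpc1, each with an r of 0.999. For Ryr1 they were Cox6a2 (0.9998), Tnnt3 (0.999) and Tnni2 (0.998), the last 2 being troponin genes of fast muscle and part of the skeletal muscle list, and for Sln they were Fam102b (0.994), Fhl1 (0.994) and Jmjd1c (0.991). Atp2a3 was followed by Cd8b1 (0.995), Klrc1 (0.992) and Morf4l1-ps1 (0.991). Cd8b1 encodes a chain of the CD8 co-receptor of T cells, and Klrc1 a receptor of natural killer cells. Itpr2 was followed by Ptp4a1 (0.997), Gm16537 (0.996) and Hspa12b (0.996), Itpr1 by Tbl1x (0.990), Pdgfd (0.985) and Rnf24 (0.980), and Atp2a2 by Ust (0.986), Exo5 (0.971) and Sepp1 (0.968). Among the members themselves, r was 0.993 for Atp2a1 and Ryr1 and 0.985 for Ryr1 and Sln, against -0.10 for Atp2a1 and Atp2a2.

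Other genes of calcium storage, release and entry were described from a list of 86, of which 84 were in the table and 77 were tested. Of these, 15 were called higher, 3 were called lower and 59 were not called. Over all genes tested, 9.04% were called higher and 7.10% were called lower. The median log2 fold change of the calcium genes was 0.48, against 0.034 over all genes tested. The list was chosen with earlier results of these data known, and 19 of its 86 genes are of the muscle release complex. These pooled values therefore cannot test for a general rise of calcium genes. Medians by role were 2.23 for this complex, 1.01 for export, 0.498 for lumen buffers and 0.493 for decoders. They were -0.15 for IP3 signaling, -0.174 for store-operated entry and -0.101 for the mitochondrial group, and negative for SERCA regulators. Without WT replicate 3, 0 of the calcium genes were called by edgeR in either direction, with 32 at an unadjusted p under 0.05. Over all 15085 genes tested in that fit, 36 were called higher and 22 lower, with 3797 at an unadjusted p under 0.05. Without WT replicate 2, 1 of the calcium genes was called in each direction, and 391 higher and 480 lower over all genes. Of the 15 higher calls, 9 were in 1 role. The muscle release complex and the junction between the sarcoplasmic reticulum and the surface membrane had 18 tested genes. Of these, 9 were called higher, 15 did not overlap between the groups on the higher side and the median was 2.23. Over all genes tested, 21.8% did not overlap on that side.

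In that group the largest called changes were those of Hrc, a calcium-binding protein of the sarcoplasmic reticulum, and Jsrp1, a partner of the release complex. Hrc had 42, 0 and 0 counts in the WT mice, against 211, 123 and 720 in the sST2-KO mice, and its log2 fold change was 4.61 (adjusted p = 0.0487). Jsrp1 had 35, 5 and 0 counts in WT and 277, 62 and 438 counts in sST2-KO mice, with 4.16 (adjusted p = 0.0372). Both followed the pattern of the muscle forms, with WT replicate 1 the highest WT library. Hrc was called only without WT replicate 1 among the fits that left out 1 library and was not called by DESeq2 (adjusted p = 0.159), and Jsrp1 only without WT replicate 1 or sST2-KO replicate 2. The part of the skeletal muscle genes in these calls was not tested either.

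Of the 6 SERCA regulators listed beside Sln and Pln, 4 were in the table and 2 were tested. Myoregulin (Mrln), another small SERCA-binding protein of muscle, was too low for edgeR's test. It was at 0, 0 and 0.370 CPM in the WT mice, against 1.32, 0.593 and 3.55 CPM in the sST2-KO mice. DESeq2, which used no such filter, called 1 of the 4 higher, Mrln, and 1 lower. It called 6.83% of all genes with a p-value higher and 5.38% lower. The higher call rested on 0, 0 and 3 counts in WT and 19, 5 and 36 in sST2-KO mice. S100a1, a calcium sensor that modulates SERCA and ryanodine receptors, fell from 416 ± 115 to 139 ± 56.7 CPM (SD, n = 3), with 313, 396 and 539 CPM in the WT mice, against 182, 160 and 74.8 CPM in the sST2-KO mice. The change of S100a1 was -1.58 on the log2 scale (standard error 0.38, adjusted p = 0.0291), and it lost the call without WT replicate 2, WT replicate 3 or sST2-KO replicate 2 (adjusted p up to 0.108). Like Itpr2, it was lowest in sST2-KO replicate 3.

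In IP3 signaling, 2 of 15 genes were called higher and 1 was called lower, and the median was -0.15. Over all genes tested, 9.04% were called higher and 7.10% lower. Ahcyl1, which encodes IRBIT, a protein that competes with IP3 at its receptor, fell from 543 ± 114 to 169 ± 59.8 CPM (SD, n = 3). This was -1.68 on the log2 scale (adjusted p = 0.0186) and was no longer called without WT replicate 2 or WT replicate 3. Its levels were 469, 485 and 675 CPM in the WT mice, against 203, 205 and 100.2 CPM in the sST2-KO mice. Plcg2, a phospholipase C of immune cells that makes IP3, rose from 6.58 ± 2.10 to 27.8 ± 15.2 CPM (SD, n = 3), or by 2.07 on the log2 scale (adjusted p = 0.0246), and lost the call without WT replicate 2, WT replicate 3 or sST2-KO replicate 3. Itpr3, the remaining IP3 receptor gene, had 12.2, 16.0 and 18.7 CPM in the WT mice, against 19.4, 20.4 and 18.6 CPM in the sST2-KO mice (log2 fold change 0.31, adjusted p = 0.343). It stands outside the rule for named genes and was added after its value was seen.

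The remaining roles held few calls by edgeR, where 9.04% of all genes tested were called higher and 7.10% lower. In store-operated entry 1 of 8 was called, Orai2, a subunit of the entry channel, with 3.73, 4.24 and 4.81 CPM in the WT mice, against 10.7, 6.05 and 16.6 CPM in the sST2-KO mice (log2 fold change 1.38, adjusted p = 0.0457, lost without any 1 library except sST2-KO replicate 2). In export 4 of 5 tested genes were higher at an unadjusted p under 0.05 in edgeR's test, where 19.6% of all genes tested were. DESeq2 called 3 of the 8 export genes in the table higher, and 6.83% of all genes with a p-value. By edgeR 1 of the 5 was called, the sodium-calcium exchanger gene Slc8a3. Slc8a3 had 1, 2 and 3 counts in WT and 15, 18 and 57 in sST2-KO mice. Over the libraries this made 6 counts against 90, a ratio of 13.4 with an exact interval of 5.93 to 37.5 for counting error only, and the call was lost without any 1 of the WT libraries. In the mitochondrial group Letm1, a protein of the inner membrane, fell from 185 ± 65.5 to 56.8 ± 12.6 CPM (SD, n = 3), or -1.71 on the log2 scale (adjusted p = 0.0160), and its adjusted p was 0.0621 once WT replicate 3 was left out. Mcub, listed as Ccdc109b, the inhibitory subunit of the mitochondrial uniporter, rose from 5.45 ± 1.66 to 18.7 ± 12.7 CPM (SD, n = 3), with 1.77 (adjusted p = 0.0482), and was no longer called without any 1 of 5 libraries. Of 9 lumen buffers and chaperones 0 were called by edgeR or DESeq2. At an unadjusted p under 0.05 in edgeR's test, 3 of them were higher, where 19.6% of all genes tested were. The smallest adjusted p was 0.0539 for Pdia3, a disulfide isomerase of the endoplasmic reticulum (log2 fold change 0.84). Of 11 calcium decoders only Camk2a was called, with 5, 3 and 0 counts in the WT mice against 56, 32 and 168 in the sST2-KO mice. The log2 fold change of Camk2a was 4.87 (adjusted p = 0.0176), and it was not called without WT replicate 2 or WT replicate 3.

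**Figure D5:**
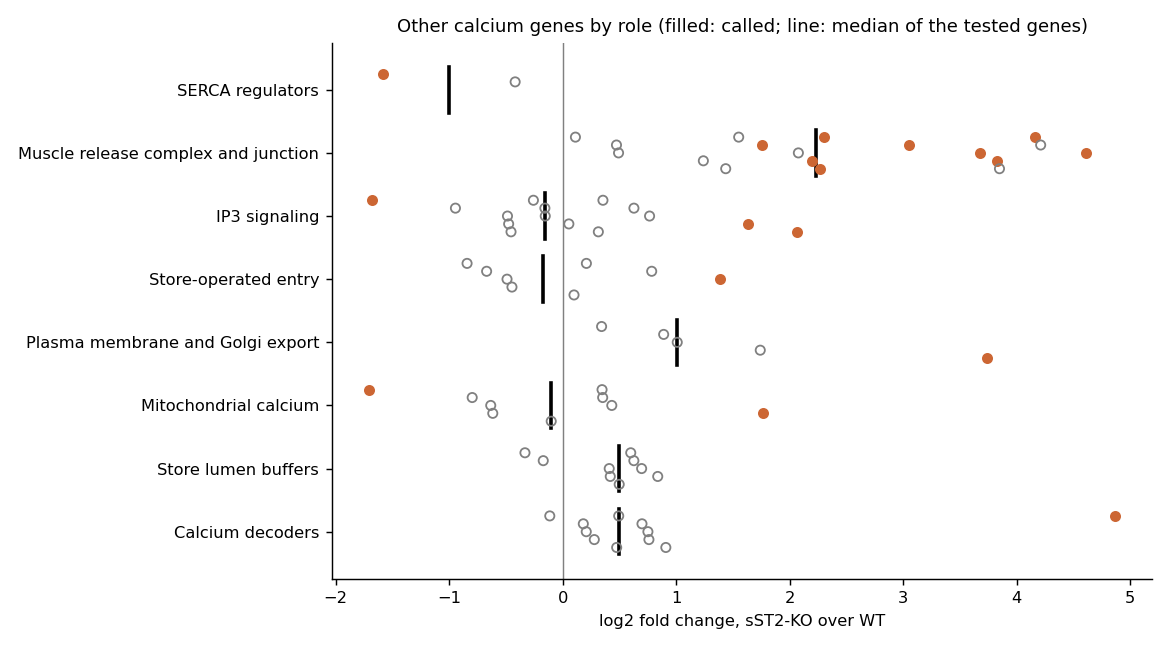
Log2 fold change (sST2-KO over WT) of 77 tested calcium genes that are not members, in 8 role groups, with 1 point per gene, filled where called and a line at the median of the group's tested genes. The 18 genes of the muscle release complex have a median of 2.23 and 9 of the 18 calls, and Letm1, Ahcyl1 and S100a1 are the 3 filled points on the lower side.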

How the data were processed

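BAT RNA of 3 WT and 3 sST2-KO mice was poly-T selected and sequenced by the authors as 150-base paired-end reads. Per the labels, FastQC 0.12.1 and HISAT2 2.2.1 were used with mm39, and the methods name htseq-count. The deposited table holds raw counts per gene symbol for 35976 rows, without normalization, and 0 columns of samples were left unused. The annotation and the strand setting of the counting are not given in the sources used here. In 27 rows the symbol had become a date. These rows stayed in the fit and are not named.

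In R 4.3.3, edgeR 4.0.16 kept 14542 genes by filterByExpr, scaled by TMM and compared sST2-KO with WT by the quasi-likelihood test with no covariates. P-values were adjusted over all genes tested (Benjamini-Hochberg). The common biological coefficient of variation was 0.325. Standard errors were the absolute log2 fold change over the root of F. Normalized CPM is the count per 1000000 of the TMM-scaled library. Calls required more than a 2-fold change, as in the study's methods, and an adjusted p below 0.05. The methods name DESeq2, which served as an alternative here (version 1.42.0). The log2 ratios within a library added 0.5 counts to each gene and were compared by an exact permutation test. The floor of detection was 3 counts per library. The floors and the exact intervals of summed counts cover counting error only. The 95% intervals of the log2 fold changes come from the quasi-likelihood fit and include the variation between mice.

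The members, the lists of calcium genes and cell type markers, and the tests were chosen with earlier results of these data known. The rule for named genes took the 9 members and, in each role, the 2 largest called changes or, with none called, the smallest adjusted p. For likeness it took the 3 highest Pearson correlations among tested genes whose mean log2 CPM reached 2. Alternatives were total counts or RLE factors as scaling, a filter of 10 counts in every sample or none, DESeq2, robust dispersions, a block for the replicate number, 1 count added in the ratios, no minimum fold, and each library left out. Chi-square over degrees of freedom was 40.1 to 114 between libraries of a group, far above sampling noise. Nothing in the sources ties a replicate number to a shared litter or day. Coordinates, exon lengths and overlaps are from GENCODE on GRCm39, and promoters from RefSeq on GRCm38.p6. Genes named Mcub, Strit1 and Irag1 are listed as Ccdc109b, Gm34302 and Mrvi1, and Erln and Arln were not matched. Plots used matplotlib 3.10.9 in Python 3.11.15.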

Additional observations from a re-analysis of the deposited data

How the results depend on the processing

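Among the 9 members, the count called higher was 0 and moved to 1 (Atp2a3) without the minimum fold change and to between 0 and 3 with 1 library left out. The count called lower was 1 and became 2 (Itpr2 and Ryr2) without the filter and with DESeq2, and 0 to 1 with 1 library left out. Of the other calcium genes, 15 were called higher. This count was 25 with total counts, which move the median log2 fold change of all genes from 0.034 to 0.29, and 0 to 17 with 1 library left out. The count called lower was 3, and 0 to 3 with 1 library left out. Of the log2 fold changes of named tested genes, 2 changed sign, Atp2a2 (0.085) and Itpr1 (0.081) with total counts. The others kept their direction: 161 stayed on the same side of an adjusted p of 0.05 as reported, 58 no longer passed it and 7 newly passed it. Pln and Ryr2 had no test as reported. The log2 ratio of means of Pln changed sign without WT replicate 1, with a range over left-out libraries of -0.46 to 0.36, and that of Ryr2 moved to -2.65 without WT replicate 3. Ryr2 had an adjusted p below 0.05 without the filter, with DESeq2 and without WT replicate 2, and above it without any 1 of the sST2-KO libraries. The log2 ratios of Atp2a1 to Atp2a2 and of Ryr1 to Ryr2 kept their direction under each alternative. The causes of these changes were not tested, except that leaving out a library reduces the samples.

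The replicate numbers gave no consistent sign of pairing: the deviations of same-numbered libraries from their group means correlated at -0.06, 0.21 and -0.31. With 3 mice per group, these values cannot exclude a shared litter or day. With the replicate number as a block, 0 members and 0 other calcium genes were called in either direction, and 0 genes in all, with 4623 at an unadjusted p under 0.05. Depth limited Ryr2 and Pln, which the filter left out of the test.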
